A study of Mus musculus with 22 samples.

Results

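Embryonic germ (EG) cell lines derived directly in 2i medium were compared with EG lines that spent their first 48 hours in fetal calf serum (FCS) and were then moved to 2i, a group labelled 2is. The comparison took the arrays titled for these derivations, 4 of EG 2i and 4 of EG 2is, which are 8 of the 22 arrays of the series. It covered 19938 genes, each measured by the probe set with the highest mean level over all arrays. The question was whether a short start in serum left a trace in mRNA levels after the lines had been established in 2i.

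Each sample was 1 Affymetrix mouse gene array hybridised with RNA of 1 line, and every EG line came from E8.5 embryos of 129SvEv crossed to an Oct4-delta-PE-GFP transgenic line on a mixed background. EG 2i lines (3 labelled female, 1 male) were derived in N2B27 medium to which PD0325901 (a MEK inhibitor), CHIR99021 (a GSK3 inhibitor) and leukaemia inhibitory factor (LIF) were added, and 2i cultures were kept on laminin. EG 2is lines (2 female, 2 male) began on mouse embryonic fibroblast feeders in FCS with LIF before that same 2i medium. EG FCS lines (1 female, 3 male) stayed on feeders in FCS with LIF and are used here as the level set by serum. All of these groups therefore received LIF, all carried the transgene and all lay in labelled batch 1. The Oct4-delta-PE-GFP transgene is a reporter that marks germ cells and naive pluripotent cells. The labels do not say how many passages separated the serum start from the RNA, and no label says that lines of the same number share an embryo. The p-values therefore reflect the spread among these samples, which may be technical.

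EG cells arise when primordial germ cells, the embryonic precursors of eggs and sperm, are cultured until they grow as pluripotent lines. Serum with LIF keeps pluripotent cells under active ERK signalling, with high levels of the de novo DNA methyltransferases. The 2 inhibitors of 2i block ERK signalling and relieve GSK3's hold on the Wnt pathway, and cells in 2i carry little DNA methylation. Serum also supplies lipids, while 2i medium does not contain it, and cells make sterols and fatty acids under the control of the SREBP transcription factors when supply is short.

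Lines of both derivations had Pou5f1 close to its mean of 11.66 in EG FCS lines, while the core pluripotency list as a whole lay lower. That list of 12 genes averaged 9.80 to 9.89 in EG 2i lines, 9.74 to 9.83 in EG 2is lines and 10.49 to 10.58 in EG FCS lines. Among its members Utf1 and Lin28a had lower means in both 2i derivations than in EG FCS lines, while Sox2 and Fbxo15 had higher ones. Pou5f1, the core pluripotency factor Oct4, lay between 11.4 and 11.7 on the log2 scale in EG 2i lines and between 11.5 and 11.7 in EG 2is lines. Markers of feeder fibroblasts averaged 5.996 to 6.133 over the 20 measured genes in EG 2i lines, against 6.01 to 6.13 in EG 2is lines and 6.59 to 7.38 in EG FCS lines. The endothelium and blood list averaged 5.27 to 5.39 in EG 2i lines and 5.22 to 5.32 in EG 2is lines. Arrays correlated at 0.984 to 0.994 within the 2 derivations and at 0.978 to 0.994 between them, and 0 array pairs of the series were identical.

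The arrays separated by X-linked expression more than by derivation. The X-linked level is the median of 222 X-linked genes, each centred on its mean over all arrays, minus that of autosomal genes, among genes with a mean above 7. It was -0.13, 0.50 and 0.57 in the EG 2i lines labelled female and -0.18 in the male one. In EG 2is lines it was 0.43 and 0.48 in females, and -0.25 and -0.16 in males. EG 2i line 1 thus carried a female label and lay beside the males on this measure. Its level of Eif2s3y, a Y-linked translation factor gene, was 4.61, beside 4.65 and 4.78 in the other EG 2i females and 8.04 in the EG 2i male, so Y-linked expression was as low as in the other females. Xist, the RNA that silences an X chromosome, lay between 4.56 and 4.80 in all 8 arrays. The first principal component of the 8 arrays held 44.1% of their variance. It placed EG 2i lines at -13.3, 22.03, 20.8 and -15.7 and EG 2is lines at -23.1, -17.8, 12.2 and 14.7, so that it set EG 2i line 1 with the males of both derivations. On autosomal genes alone the first component, with 39.8%, split the lines the same way. Main results are therefore also given without EG 2i line 1. The second component of all genes, with 18.9%, lay closer to derivation. It placed EG 2i lines at 21.2, 5.37, 9.44 and -0.43 and EG 2is lines at -12.2, 0.75, -18.7 and -5.42. The derivations overlapped there at EG 2i line 4 and EG 2is line 2.

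**Figure D1:**
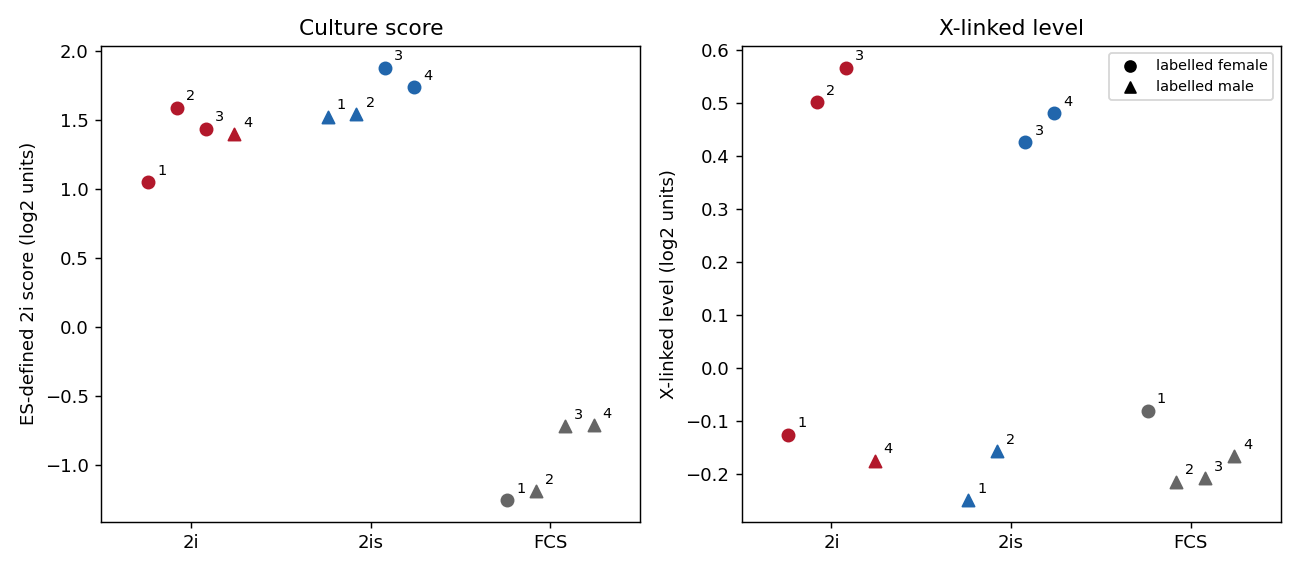
Culture score (left, log2 units, defined in ES lines) and X-linked level (right, log2 units) of each of the 12 EG arrays, with line numbers beside the points, circles for lines labelled female and triangles for male. EG 2i scores lie between 1.05 and 1.59, EG 2is scores between 1.52 and 1.88 and EG FCS scores below 0, and EG 2i line 1 lies at -0.13 on the X-linked level.

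No gene passed the threshold between the derivations. In a limma fit over all 22 arrays with terms for group, labelled batch and labelled sex, 0 of 19938 genes (0%) had a Benjamini-Hochberg adjusted p under 0.05, and the smallest adjusted p was 0.137. At an unadjusted p under 0.05 there were 2116 genes (10.6%), of which 1004 (5.04%) were higher and 1112 (5.58%) lower in EG 2i lines. The fit was precise enough to bound most differences in array level. The median standard error (SE) was 0.091 on the log2 scale. The 95% interval of the difference lay within 2-fold either way for 19738 genes (99.0%). For 17562 genes (88.1%) it lay within 0.5 on the log2 scale. These counts include genes with little signal: 4725 genes had a mean below 4.88, the highest Eif2s3y level in a female array. For such genes a narrow interval does not bound a difference in mRNA. Every EG 2i line lay above every EG 2is line for 365 genes (1.83%) and below for 495 genes (2.48%). Without EG 2i line 1, 0 genes were called and 1966 had an unadjusted p under 0.05. Fits of the 8 arrays alone called 1 gene with the sex term, 11 with the X-linked level in its place, and 7 with the sex term and without EG 2i line 1. The last 2 fits were chosen after the data were seen.

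Dnmt3l, Acta2, Thbs1, Dusp6 and Enpp3, chosen as genes high in serum, lay far below the serum level in both derivations. Other genes that separate the media, among them Acss1 and Aldh1l1, differed more between the derivations and are given further on. Dnmt3l, the cofactor of the de novo methyltransferases, was at 6.58, 6.54, 5.95 and 7.47 in EG 2i lines, against 6.83, 6.49, 7.72 and 6.79 in EG 2is lines and 11.6, 11.8, 11.01 and 10.9 in EG FCS lines. The derivations overlapped and the difference was -0.21 (95% interval -1.27 to 0.85, adjusted p = 0.921, limma), beside a difference from EG FCS lines of -4.44 for EG 2i and -4.23 for EG 2is. Differences here are those of the fit, adjusted for sex, and the 2 comparisons with EG FCS share its arrays. Acta2, a smooth muscle actin abundant in fibroblasts, differed by 0.02 (-0.59 to 0.64) between the derivations and by -4.50 between EG 2i and EG FCS lines. Thbs1, a matrix glycoprotein, differed by 0.12 (-0.62 to 0.87), against -4.24 from EG FCS. Both are also made by feeder cells, and the part of the feeder layer in the values from EG FCS lines was not tested. Dusp6, a phosphatase induced by ERK, was at 5.90, 5.80, 5.85 and 5.81 in EG 2i lines, against 5.75, 5.78, 6.22 and 5.96 in EG 2is lines. In EG FCS lines Dusp6 was at 9.18, 9.12, 9.53 and 9.79, above every line of either 2i derivation. Enpp3, an ectonucleotide pyrophosphatase, differed by 0.01 (-0.56 to 0.57) between the derivations.

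The chosen pluripotency and germ cell genes Prdm14, Nanog, Klf4, Esrrb, Sox2, Pou5f1 and Dazl were not called either. Prdm14, a germ cell and naive pluripotency regulator that lowers DNA methylation, averaged 9.09 ± 0.45 in EG 2i lines, 9.02 ± 0.35 in EG 2is lines and 6.66 ± 0.38 in EG FCS lines (SD, n = 4 each). Its difference between the derivations was -0.06 (-0.55 to 0.43). Nanog differed by 0.07 (-0.28 to 0.42), Klf4 by 0.00 (-0.38 to 0.38) and Esrrb by -0.01 (-0.25 to 0.23), all 3 of them naive pluripotency factors. Sox2 differed by 0.03 (-0.13 to 0.19) and Pou5f1 by -0.07 (-0.21 to 0.06). For these genes the intervals leave room for differences below 1.5-fold either way, and Dnmt3l, Acta2, Thbs1 and Enpp3 were bounded less closely. Dazl, which encodes a germ cell RNA-binding protein and is silenced by DNA methylation, was at 9.53, 10.5, 10.5 and 9.73 in EG 2i lines, against 8.45, 9.34, 9.86 and 10.4 in EG 2is lines, with overlap. Its difference was 0.39 (-0.16 to 0.94), beside 2.69 for EG 2i and 2.30 for EG 2is against EG FCS lines.

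**Figure D2:**
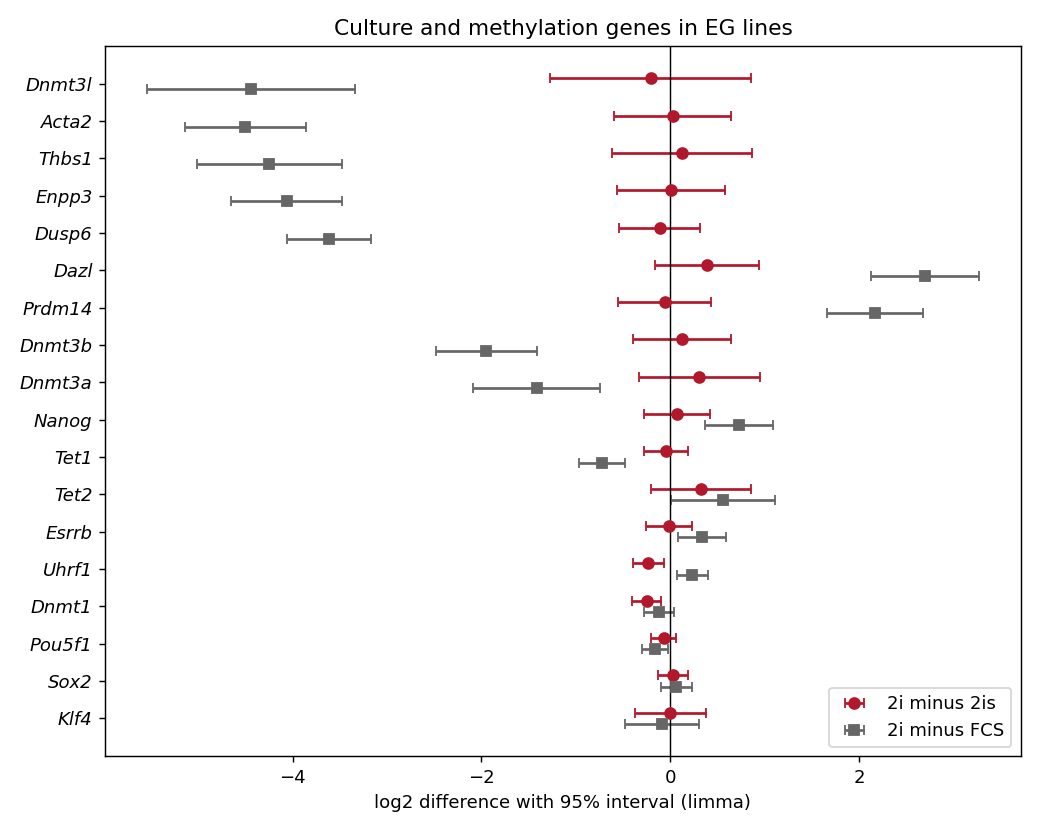
Log2 difference with 95% interval (limma) for 18 culture, pluripotency and methylation genes in EG lines, 2i minus 2is as red circles and 2i minus FCS as grey squares. The circles lie between -0.25 and 0.39, while Dnmt3l, Acta2, Thbs1 and Enpp3 lie beyond -4 against FCS.

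The genes nearest the threshold on the lower side included enzymes of acetate and one-carbon metabolism. Acss1, a mitochondrial acetyl-CoA synthetase, was at 7.72, 7.30, 7.26 and 7.37 in EG 2i lines, against 8.92, 8.77, 8.18 and 8.28 in EG 2is lines. No EG 2i line reached the lowest EG 2is line, and the difference was -1.14 (SE 0.19, adjusted p = 0.137, limma), a 2.20-fold lower level. Aldh1l1, a cytosolic enzyme that oxidises 10-formyltetrahydrofolate, was at 6.93, 6.39, 6.63 and 7.18 in EG 2i lines, against 8.35, 8.26, 8.21 and 7.47 in EG 2is lines. Here too the groups did not overlap, and the difference was -1.23 (SE 0.21, adjusted p = 0.137, limma). Both genes lay lower still in EG FCS lines: Acss1 averaged 5.75 ± 0.12 and Aldh1l1 averaged 5.22 ± 0.45 there (SD, n = 4). Acss1 was thus 1.64 above EG FCS lines in EG 2i and 2.78 above them in EG 2is, and Aldh1l1 was 1.68 and 2.91 above. The lines without serum at any time stood between EG FCS and the lines with a serum start for both. Without EG 2i line 1 the differences were -1.23 (adjusted p = 0.0627) and -1.30 (adjusted p = 0.0986). Across the 25 alternative settings both kept their direction, with adjusted p from 0.00734 to 0.672 for Acss1 and from 0.0106 to 0.751 for Aldh1l1 (limma). The same 3 settings called each, and all 3 were chosen after the data were seen. They were the X-linked level in place of sex over 22 or 8 arrays, and the 8 arrays without EG 2i line 1.

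The promoter windows of this pair are shown because they carry the smallest p-values of the comparison (RefSeq, GRCm38.p6, 250 bases before to 50 after the start, 5′ to 3′ on the gene's strand, with every CG in capitals). CpG dinucleotides are the sites of DNA methylation. The Acss1 window (chr2:150668191-150668490, minus strand) holds 23 CpGs and the Aldh1l1 window (chr6:90550543-90550842, plus strand) holds 9, beside a median of 7 and quartiles of 3 and 20 over 32851 windows. Methylation was not measured in these arrays.
Acss1: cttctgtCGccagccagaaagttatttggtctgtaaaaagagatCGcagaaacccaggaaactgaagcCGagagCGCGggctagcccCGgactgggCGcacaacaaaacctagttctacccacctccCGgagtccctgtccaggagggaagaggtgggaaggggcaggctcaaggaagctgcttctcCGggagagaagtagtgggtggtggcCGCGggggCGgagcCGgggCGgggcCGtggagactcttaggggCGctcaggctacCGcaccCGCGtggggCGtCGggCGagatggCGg
Aldh1l1: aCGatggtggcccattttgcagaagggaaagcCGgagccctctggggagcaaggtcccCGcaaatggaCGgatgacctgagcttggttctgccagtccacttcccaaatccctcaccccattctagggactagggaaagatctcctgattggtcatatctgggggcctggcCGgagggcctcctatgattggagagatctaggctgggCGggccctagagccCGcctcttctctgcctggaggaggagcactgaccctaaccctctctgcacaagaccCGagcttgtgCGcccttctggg

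**Figure D3:**
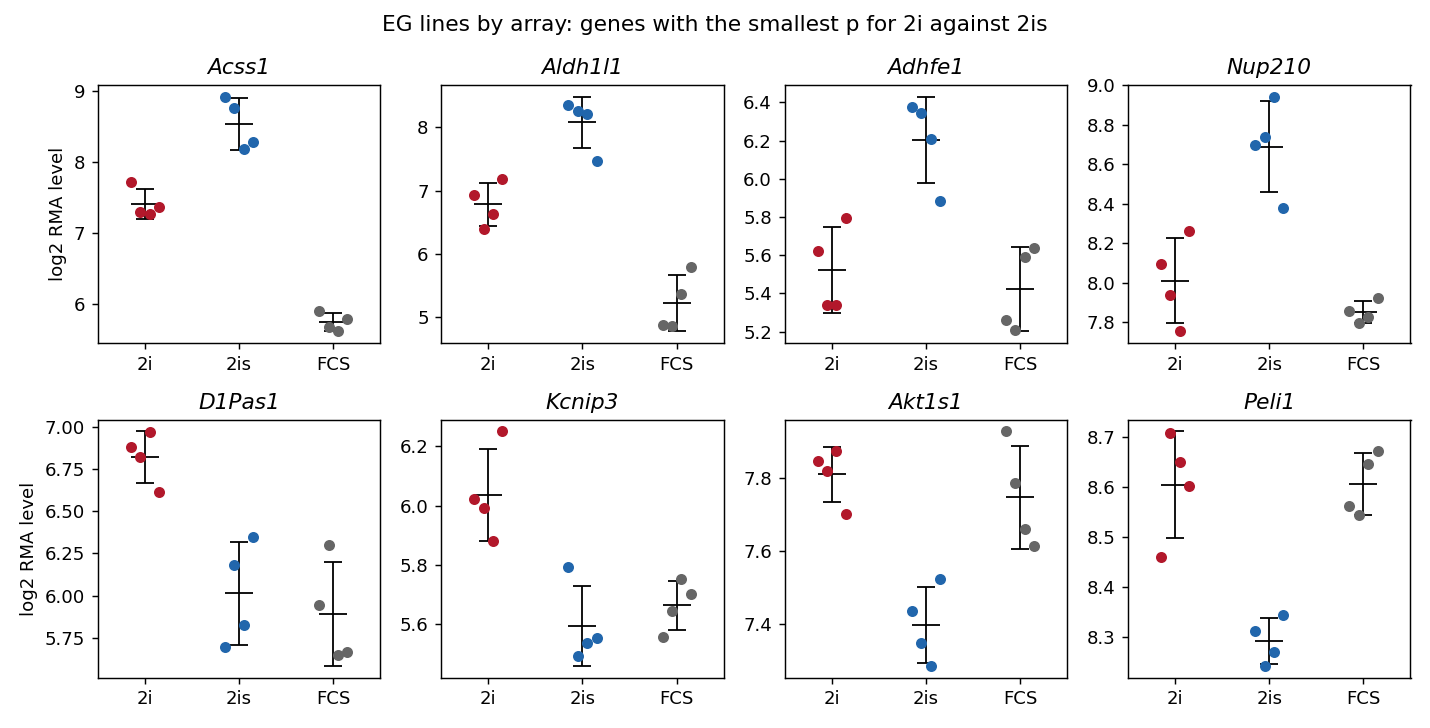
Log2 RMA level of 8 genes with small p-values on each EG array (points), with the mean and SD of 4 lines (bars), for 2i, 2is and FCS. In the upper genes EG 2i lines lie below EG 2is lines, and in the lower genes above them. The 2 derivations overlap in no gene, which goes with the choice of genes by small p-values.

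Other genes with small p-values were lower by less. Adhfe1, a mitochondrial hydroxyacid-oxoacid transhydrogenase, was at 5.62, 5.34, 5.34 and 5.80 in EG 2i lines, against 6.38, 6.35, 6.21 and 5.89 in EG 2is lines, a difference of -0.64 (SE 0.13, adjusted p = 0.137, limma). Nup210, a membrane protein of the nuclear pore, differed by -0.63 (SE 0.13) with means of 8.01 ± 0.22 in EG 2i lines and 8.69 ± 0.23 in EG 2is lines (SD, n = 4 each). For both, EG 2i lines lay close to EG FCS lines, at 0.17 (-0.11 to 0.45) and 0.26 (-0.02 to 0.54) above them, while EG 2is lines lay 0.82 and 0.89 above. Fuca2, a secreted fucosidase, differed by -0.37, Cc2d1b, a relative of a signalling scaffold, by -0.37, Emc9, a subunit of an endoplasmic reticulum membrane complex, by -0.43 and Kntc1, a kinetochore protein, by -0.33. These 8 genes on the lower side were chosen for the smallest p-values of this comparison, and their adjusted p was 0.137. They did not overlap between the derivations, nor did 495 of all genes (2.48%) on that side. Given how they were chosen, this lack of overlap is no separate support.

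Among the 8 genes with the smallest p-values on the higher side, differences were smaller than those of Acss1 and Aldh1l1. D1Pas1, an autosomal copy of the X-linked RNA helicase gene Ddx3x, was at 6.88, 6.82, 6.97 and 6.61 in EG 2i lines, against 5.70, 6.18, 5.82 and 6.35 in EG 2is lines. The groups did not overlap and the difference was 0.78 (SE 0.15, adjusted p = 0.137, limma). Its probes may also take up RNA of the near-identical gene, so this value is uncertain. Kcnip3, a calcium-binding protein that acts on potassium channels and in the nucleus, differed by 0.49 (SE 0.091), with EG 2is lines 0.03 below EG FCS lines. Akt1s1, an inhibitory subunit of mTORC1, averaged 7.81 ± 0.076 in EG 2i lines and 7.40 ± 0.10 in EG 2is lines (SD, n = 4 each). It differed by 0.40 (SE 0.077, adjusted p = 0.137, limma). Usp31, a deubiquitinase, differed by 0.44, Fadd, the adaptor of death receptors, by 0.34, Peli1, a ubiquitin ligase of innate immune signalling, by 0.31, Tex29 by 0.31 and Klhl11, an adaptor of a ubiquitin ligase, by 0.29. Peli1, Akt1s1, Klhl11, Tex29 and Usp31 had EG 2i levels within 0.08 of EG FCS lines, and EG 2is levels 0.23 to 0.37 below them.

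A culture score placed each line between serum and 2i. It was set in ES lines, which are derived from early embryos and belong to neither derivation. The ES arrays do enter the limma fit over all arrays, and so bear on its sex and batch terms and its SEs. In a fit of the 10 ES arrays alone, 403 genes were called at least 2-fold higher and 367 at least 2-fold lower in 2i than in FCS, and the score of an EG array is the mean of the first set minus the mean of the second. EG 2i lines scored 1.05, 1.59, 1.44 and 1.40, EG 2is lines 1.52, 1.54, 1.88 and 1.73, and EG FCS lines -1.25, -1.19, -0.72 and -0.71. Both 2i derivations were far above serum, and EG 2i lines were on average lower than EG 2is lines, with overlap at EG 2i line 2. The means were 1.37 ± 0.23 in EG 2i lines, 1.67 ± 0.17 in EG 2is lines and -0.97 ± 0.29 in EG FCS lines (SD, n = 4 each). Lines that had never been in serum thus scored 0.30 below lines with a serum start, beside a gap of 2.33 between EG 2i and EG FCS lines. With no fold threshold on the ES genes the difference was -0.13. Among lines labelled female EG 2i scored 1.05 to 1.59 and EG 2is 1.73 to 1.88, and among males 1.40 stood beside 1.52 and 1.54. Without EG 2i line 1 the difference was -0.20, and over the lines left out in turn it ranged from -0.38 to -0.20.

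Genes that are high in 2i made up the larger share of the score's gap. Of the 403 genes higher in ES 2i, 336 had a difference below 0 in EG 2i against EG 2is lines, with a median of -0.19, beside a median of 0.005 over all genes. At an unadjusted p under 0.05 79 of them (19.6%, beside 5.58% of all genes) were lower and 1 was higher. Of the 367 genes lower in ES 2i, 28 (7.63%, beside 5.04% of all genes) were higher and 1 was lower, with a median of 0.09. Of these 770 genes, 0 were called by limma. Leaving out EG 2i line 1, the line with the lowest score, gave 58 lower and 6 higher of the first set, with a median of -0.12, and 25 higher and 5 lower of the second. In the second set the 28 genes became 16 without EG 2is line 3 and 17 with arrays centred on their medians. Acss1 and Aldh1l1 are members of the first set.

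**Figure D4:**
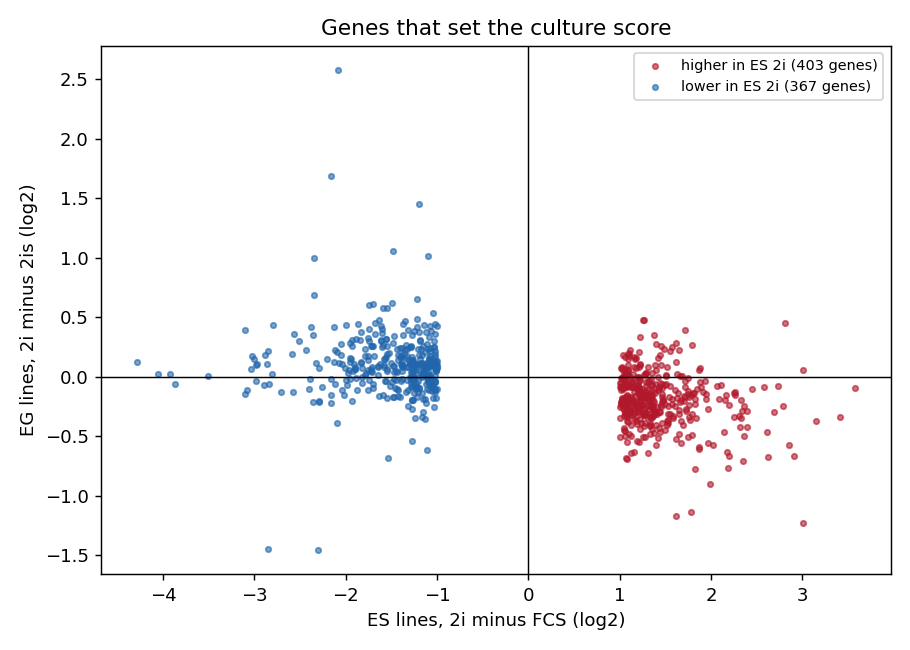
For the 770 genes of the culture score, the log2 difference of ES lines in 2i minus FCS (horizontal) against that of EG lines, 2i minus 2is (vertical), with 1 point per gene. The 403 genes higher in ES 2i (red) have a median of -0.19 on the vertical axis and the 367 genes lower in ES 2i (blue) a median of 0.09.

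Genes of lipid synthesis lay lower in EG 2i lines, and none of them was called. Of 17 measured genes of cholesterol synthesis, 17 had a difference below 0 (48.3% of all genes did), with a median of -0.22, and 7 were lower at an unadjusted p under 0.05, beside 5.58% of all genes. Sqle, the squalene epoxidase, was at 9.14, 8.89, 8.57 and 8.77 in EG 2i lines, against 9.60, 9.40, 9.39 and 8.93 in EG 2is lines, and differed by -0.47 (SE 0.15, adjusted p = 0.282, limma). Pmvk, the phosphomevalonate kinase, differed by -0.50, Lss, the lanosterol synthase, by -0.43, Hmgcs1, the enzyme that makes HMG-CoA, by -0.32 and Nsdhl, a sterol dehydrogenase encoded on the X chromosome, by -0.31. Fdft1, the squalene synthase, differed by -0.22 and Srebf2, the transcription factor of sterol synthesis, by -0.20. The list averaged 8.59 to 8.91 in EG 2i lines, against 8.78 to 9.23 in EG 2is lines and 8.58 to 8.86 in EG FCS lines. EG 2i lines 2, 3 and 4 lay in the range of EG FCS lines on this list, EG 2i line 1 lay above it, and the derivations overlapped. The median without EG 2i line 1 was -0.27, with 9 members at an unadjusted p under 0.05.

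Of 12 measured genes of fatty acid synthesis 11 had a difference below 0, with a median of -0.25, and 4 were lower at an unadjusted p under 0.05, beside 5.58% of all genes. Srebf1, the transcription factor of fatty acid synthesis, was at 7.67, 7.64, 7.62 and 7.79 in EG 2i lines, against 8.40, 8.01, 8.06 and 7.83 in EG 2is lines. The groups did not overlap, and the difference was -0.38 (SE 0.10, adjusted p = 0.211, limma). Fads1, a fatty acid desaturase, differed by -0.34, Acss2, the cytosolic and nuclear acetyl-CoA synthetase, by -0.38 and Fasn, the fatty acid synthase, by -0.27. The list averaged 9.20 to 9.29 in EG 2i lines, against 9.37 to 9.54 in EG 2is lines and 8.29 to 8.59 in EG FCS lines. Here the derivations did not overlap, and both lay above EG FCS lines. Without EG 2i line 1 the median was -0.22, with 5 members at an unadjusted p under 0.05. In the 2 lipid lists Lss, Hmgcs1, Nsdhl, Srebf2, Fasn and Elovl6 fell outside the rule for naming genes and were picked after their values were seen.

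**Figure D5:**
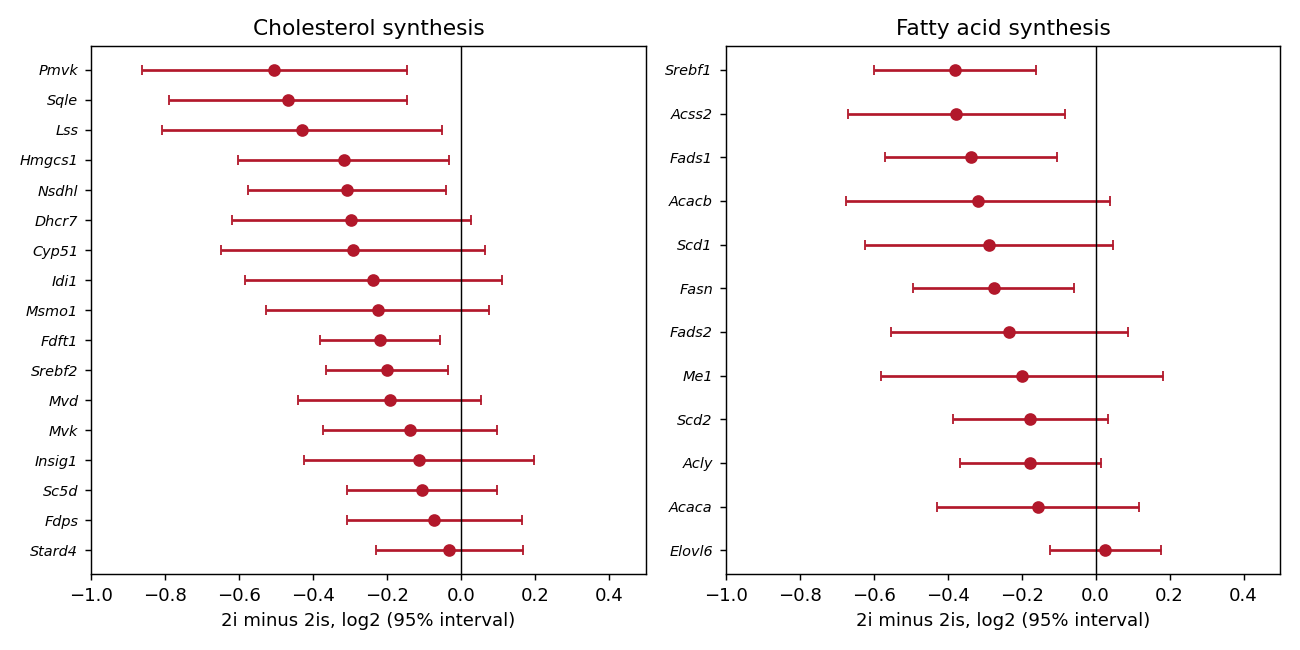
Log2 difference of EG 2i minus EG 2is lines with its 95% interval (limma) for the 17 measured genes of cholesterol synthesis (left) and the 12 of fatty acid synthesis (right). Of these 29 genes, 28 lie below 0, and Elovl6 lies at 0.03.

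SREBP factors bind the sterol response element, and its letters TCACNCCAC were searched on both strands of the promoter windows. They occurred in 1 of the 13 cholesterol genes with a window, Hmgcs1, in 0 of the 9 fatty acid genes with one and in 388 of 27025 genes (1.44%). Counts are per gene, with a match in any of its windows. The Hmgcs1 window (chr13:119690101-119690400, plus strand, RefSeq, GRCm38.p6) is shown with the match in capitals, which begins 137 bases before the start.
Hmgcs1: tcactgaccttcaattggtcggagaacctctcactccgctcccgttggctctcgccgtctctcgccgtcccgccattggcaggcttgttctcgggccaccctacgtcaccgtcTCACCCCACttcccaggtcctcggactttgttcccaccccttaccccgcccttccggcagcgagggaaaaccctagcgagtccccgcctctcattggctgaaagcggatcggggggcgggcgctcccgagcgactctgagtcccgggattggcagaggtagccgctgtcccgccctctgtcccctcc

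Dppa3, Dppa2 and most of the methylation-dependent germline genes were higher in EG 2i lines, and 0 of them were called. Dppa3, a maternal factor that protects DNA methylation states in the zygote, was at 8.42, 8.52, 8.05 and 8.56 in EG 2i lines, against 7.67, 7.42, 7.69 and 7.72 in EG 2is lines. The groups did not overlap, and the difference was 0.81 (SE 0.23, adjusted p = 0.218, limma). Dppa2, a chromatin factor of pluripotent cells, was at 10.8, 10.8, 10.8 and 10.7 in EG 2i lines, against 9.73, 10.5, 10.1 and 10.5 in EG 2is lines, and differed by 0.55 (SE 0.16, adjusted p = 0.221, limma). Both kept their direction across the 25 alternative settings, which include the mean of probe sets. Dppa3 and Dppa2 each had 2 probe sets, and the values printed are those of the one with the highest mean. Whether these probe sets also take up RNA of near copies was not tested. Of 18 measured genes listed as germline genes silenced by promoter methylation, 16 had a difference above 0 (51.7% of all genes did). The median was 0.25, and 3 were higher at an unadjusted p under 0.05, beside 5.04% of all genes. These were Slc25a31, a testis ATP carrier, at 0.56, Rpl10l, a testis ribosomal protein, at 0.48 and Asz1, a germ cell protein of the piRNA pathway, at 0.41. The list averaged 6.81 to 7.37 in EG 2i lines, against 6.60 to 6.98 in EG 2is lines and 6.54 to 6.71 in EG FCS lines. The derivations overlapped, and 1 line stood apart for 2 of these genes: Asz1 was at 6.46 in EG 2i line 2 and at 5.22 to 5.34 in the other EG 2i lines, and Rpl10l was at 10.3 in that line and at 9.90 to 9.94 in the others. Without EG 2i line 2 the differences of Asz1 and Slc25a31 were 0.13 and 0.28, and without EG 2is line 1 that of Rpl10l was 0.28. Without EG 2i line 1 the median of the list was 0.22. Members of the list differed in their order against serum. Ddx4, Mael, Sycp3 and Mov10l1 had their highest mean in EG FCS lines, and Dazl, Rpl10l, Hormad1, Stk31 and Tuba3a had their lowest there. Zfp42, a member of this list, was also counted in the core pluripotency list.

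No gene of DNA methylation or demethylation was called. Dnmt1, the maintenance methyltransferase, was at 9.55, 9.46, 9.48 and 9.70 in EG 2i lines, against 9.76, 9.90, 9.94 and 9.64 in EG 2is lines. It differed by -0.25 (SE 0.072, adjusted p = 0.221, limma), with overlap. Uhrf1, which recruits Dnmt1 to newly copied DNA, differed by -0.23 (SE 0.076) and its relative Uhrf2 by 0.42 (SE 0.14). The de novo enzymes Dnmt3a and Dnmt3b differed by 0.31 (-0.34 to 0.95) and 0.12 (-0.39 to 0.64). Of the 7 genes of this list, 2 were lower and 1 was higher at an unadjusted p under 0.05, which 10.6% of all genes reached. Tet1, which oxidises methylated cytosine, differed by -0.05 (-0.28 to 0.18) and Tet2 by 0.32 (-0.21 to 0.85). Of the 10 measured genes of demethylation 1 had an unadjusted p under 0.05, the repair enzyme gene Parp1 at -0.21.

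Pluripotency lists centred near 0, and their counts at an unadjusted p under 0.05 stand beside 10.6% of all genes. Of 11 naive pluripotency factors Dppa3 had an unadjusted p under 0.05, and the median was 0.00. Of 12 core pluripotency genes Dppa2 did, and the median was 0.06. Among 9 primed epiblast genes the median was 0.04, and Sox11, a transcription factor of neural progenitors, differed by 0.48 with EG 2i lines at 6.30, 6.32, 6.30 and 5.56 and EG 2is lines at 5.76, 5.76, 5.22 and 5.80. Of 10 primordial germ cell genes 1 was higher at an unadjusted p under 0.05, Dppa3 at 0.81, and 2 were lower. The lower ones were Alpl, the tissue-nonspecific alkaline phosphatase, at -0.35 and Ifitm1, a membrane protein of early germ cells, at -0.47. The median was 0.01 over the list.

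Targets of ERK, Wnt, BMP-SMAD and LIF-STAT3 signalling showed small differences between the derivations. Medians were 0.03 over 20 ERK targets, 0.02 over 12 Wnt targets, 0.11 over 9 BMP-SMAD targets and -0.06 over 10 LIF-STAT3 targets. In each of these lists at most 1 member had an unadjusted p under 0.05, which 10.6% of all genes reached. These members were Dusp5, a phosphatase of ERK, at 0.28 and Msx2, a homeobox target of BMP, at 0.28. The third was Il6st, the gp130 receptor subunit of LIF signalling, at -0.35. Among 8 autosomal inhibitors of the MAPK pathway the 1 such member was Dusp8 at 0.25.

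Markers of other cell types gave no common shift. Median differences were -0.03 over 20 feeder fibroblast markers, 0.08 over 13 primitive endoderm genes, -0.06 over 10 hindgut genes, -0.09 over 11 trophoblast genes, 0.10 over 8 primitive streak and mesoderm genes and 0.03 over 11 genes of endothelium and blood. Over 10 neural ectoderm genes the median was 0.11, and the list averaged 5.52 to 5.64 in EG 2i lines, against 5.38 to 5.47 in EG 2is lines, without overlap. Zic1, a zinc finger factor, differed by 0.28 and Tubb3, a neuronal tubulin, by 0.42. Zic1 was at 5.03 to 5.23 in EG 2i lines and at 4.73 to 5.01 in EG 2is lines. Its EG 2is mean of 4.83, like that of Tex29 at 4.71 and the EG 2i mean of Emc9 at 4.79, lay below 4.88, the level used here as a mark of background (the highest Eif2s3y level in a female array), so these differences rest on values not above background in 1 group. At an unadjusted p under 0.05, which 10.6% of all genes reached, the feeder markers Fn1, a matrix gene, and S100a4, a calcium-binding protein, differed by -0.34 and 0.28. The trophoblast genes Ascl2 and Krt7 differed by 0.38 and -0.54 at that level. The EG 2is mean of S100a4 (4.68) and the EG 2i mean of Krt7 (4.87) also lay below the background mark.

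The other metabolic, stress and chromatin lists held no called gene, and their counts at an unadjusted p under 0.05 stand beside 10.6% of all genes. All 11 measured glycolysis genes had a difference below 0, with a median of -0.19, and 1 of them, the hexokinase Hk1 at -0.25, had an unadjusted p under 0.05. The list averaged 10.0 to 10.6 in EG 2i lines and 10.2 to 10.8 in EG 2is lines, with overlap. Of 12 genes of the unfolded protein response 3 were lower at that level, the chaperone genes Hyou1, Pdia4 and Hsp90b1 at -0.27, -0.26 and -0.19, and without EG 2i line 1 there were 0. No member reached it among 14 ATF4 targets, 10 p53 targets, 9 interferon genes or 12 hypoxia targets, with medians of -0.06, 0.10, -0.01 and -0.03. Among 13 proliferation genes Mcm3 and Pcna, both of DNA replication, differed by -0.24 and -0.16. Over 12 Polycomb genes the median was -0.00, and Mtf2, a subunit that guides the complex, differed by 0.27 without overlap. Over 21 imprinted genes the median was 0.10, and 3 were higher and 1 lower at that level. Among these were Cdkn1c, a maternally expressed cell cycle inhibitor, at 0.43 and Igf2r, a maternally expressed receptor, at -0.46. Over 7 replication-dependent histone genes the median was 0.13. The linker histone genes H1f1 and H1f3 were higher at that level, at 0.29 and 0.22 without overlap, and H2bc3 was lower at -0.18. Over 8 housekeeping genes the median was -0.05. By chromosome, the median was -0.00 over 739 X-linked genes, of which 29 were higher and 26 lower at an unadjusted p under 0.05. The lists of the X inactivation centre (2 measured), of X-linked markers of 2 active X chromosomes (8) and of Y-linked genes (6) had medians of -0.18, -0.10 and 0.06.

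Several of the widest fitted differences belonged to genes that also varied among the lines of a derivation. The genes of this paragraph were chosen after their values were seen. At least 2-fold differences were fitted for 15 genes, 7 higher and 8 lower in EG 2i lines. Lefty2, an inhibitor of Nodal signalling, was at 7.99, 6.47, 6.61 and 7.24 in EG 2i lines, against 9.05, 7.93, 9.06 and 8.79 in EG 2is lines, and differed by -1.79 (SE 0.48, adjusted p = 0.207, limma). EG 2i line 1 and EG 2is line 2 overlapped. Its neighbour Lefty1, a second Nodal inhibitor, was at 7.08, 4.74, 5.10 and 6.33 in EG 2i lines, against 8.23, 7.01, 7.23 and 6.37 in EG 2is lines, and differed by -1.45 (SE 0.71). Lefty2 averaged 8.68 ± 0.45 in EG FCS lines (SD, n = 4), within the range of EG 2is lines. Trh, the gene of thyrotropin-releasing hormone, differed by -1.46 and Susd2, a surface protein, by -1.17, both with SDs from 0.71 to 1.17 among the 4 lines of each derivation. Porcn, the X-linked enzyme that acylates Wnt proteins, differed by 1.00 (SE 0.27, adjusted p = 0.211, limma). It was at 7.41, 7.92, 7.13 and 7.34 in EG 2i lines, against 5.86, 6.81, 6.65 and 6.52 in EG 2is lines and 8.15 ± 0.20 in EG FCS lines (SD, n = 4). Fabp3, a fatty acid binding protein, was at 9.60, 9.69, 9.65 and 9.84 in EG 2i lines, against 10.8, 10.6, 10.4 and 10.5 in EG 2is lines. It did not overlap, differed by -0.89 (SE 0.27, adjusted p = 0.241, limma) and was the gene called in the fit of the 8 arrays with the sex term (adjusted p = 0.0291).

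A group of genes high in the earliest embryo had its highest values in 1 line; Pramel20, Tmem92 and Gm5662 were again chosen after their values were seen. The 4 measured genes of the two-cell-like list had a median difference of 0.43, which was 0.10 without EG 2i line 1. Usp17lc, a deubiquitinase, was at 7.52 in EG 2i line 1, beside 5.89 to 6.13 in the other EG 2i lines and 5.58 to 6.54 in EG 2is lines. Pramel20, of the PRAME-like family, was at 9.83, 6.90, 6.63 and 5.95 in EG 2i lines, against 5.15, 7.45, 4.86 and 5.65 in EG 2is lines, and its difference of 1.45 was 0.68 without line 1. Tmem92 was at 9.24 in EG 2i line 1, beside 5.54 to 7.13 in the other EG 2i lines. EG 2is line 2 was the highest of its derivation for Pramel20 and Tmem92, at 7.45 and 7.64. Such genes have near copies in the genome, so their probe sets can take up RNA of several. The widest difference of all genes, 2.58 (SE 1.07, adjusted p = 0.408, limma) for the predicted gene Gm5662, had means of 8.85 ± 2.02 in EG 2i lines and 6.24 ± 2.38 in EG 2is lines (SD, n = 4 each).

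The spread among lines was as follows. The median SD over genes was 0.131 among EG 2i lines, 0.129 among EG 2is lines and 0.116 among EG FCS lines. An SD above 1 was found for 54 genes in EG 2i lines, 37 in EG 2is lines and 9 in EG FCS lines, and for 50 in EG 2i without line 1. The difference in these counts was not tested. Among 7064 probe sets with no single gene symbol, 2 (0.0283%) were called, both lower in EG 2i lines, at -0.37 (adjusted p = 0.0384, limma) and -1.25 (adjusted p = 0.0232, limma). The second was at 4.76, 4.46, 4.33 and 4.43 in EG 2i lines, against 6.18, 6.42, 5.28 and 5.44 in EG 2is lines and 4.73, 5.21, 4.45 and 4.99 in EG FCS lines. Neither call was stable: without EG 2i line 1 there was 1 call, without EG 2i line 2, 3 or 4 or EG 2is line 1 or 2 there were 0, and with the 8 arrays or the 12 EG arrays alone there were 0. For the interaction of derivation and labelled sex, 0 of 19938 genes were called by limma and 1157 of them had an unadjusted p under 0.05.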

How the data were processed

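RNA of 22 mouse cell samples was measured on Affymetrix gene arrays, 1 array each. The deposited values are log2 RMA levels, 1 per probe set and array, made with RMA in Affymetrix Expression Console, going by the tools listed in the submitters' processing notes, which also list limma. Tool versions were not given. Of 28853 probe sets, 21789 had a single gene symbol in the platform annotation, 1621 several and 5443 none. The probe set with the highest mean stood for each gene.

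Groups, sex and batch came from the labels. All 22 arrays were fitted with limma 3.58.1 (R 4.3.3, default eBayes), with terms for group, batch (1 or 2) and sex. Every p-value for a gene is limma's, two-sided and adjusted over 19938 genes by Benjamini-Hochberg unless called unadjusted, and a gene was called at an adjusted p under 0.05. The fit was tested on simulated data. Raw arrays were not used, so background correction was not varied, and the number of arrays limits precision.

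The comparison, the 36 gene lists (397 of 442 names measured) and the naming rule were chosen with earlier results of these data known. The rule names, where fewer than 12 genes are called, the 8 with the smallest p in each direction, up to 3 members per list, 20 fixed genes and the 4 genes with the largest sex difference each way. Alternatives changed the arrays, terms, normalization, filter and probe sets, or left out 1 line. Python 3.11.15, pandas 2.3.3 and matplotlib 3.10.9 were used for tables and figures.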

Additional observations from a re-analysis of the deposited data

Results flagged for a closer look

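In these genes 1 of the 4 lines of a derivation lay far from the other 3 by Dixon's criterion for 4 values. Such a gap arises by chance in about 1 of 20 groups, and 24 were found among 290 pairs of a named gene and a derivation, 12 in each derivation. Values are log2 levels.

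Among EG 2i lines, line 1 was high for Usp17lc, a deubiquitinase (7.52, beside 5.89 to 6.13 in the other lines), and for Fbxo15, a ubiquitin ligase subunit (10.7, beside 10.6 in the others), and low for Pecam1, an adhesion protein (8.09, beside 8.49 to 8.51). Line 2 was high for the germline genes Asz1 (6.46, beside 5.22 to 5.34) and Rpl10l (10.3, beside 9.90 to 9.94) and for Thbs1 (5.85, beside 5.27 to 5.33). Line 4, the EG 2i line labelled male, was high for the Y-linked Eif2s3y (8.04, beside 4.61 to 4.78), Uty (7.45, beside 4.59 to 4.89) and Uba1y (6.41, beside 5.43 to 5.55). It was low for Sox11 (5.56, beside 6.30 to 6.32), Dppa2 (10.7, beside 10.8 in the others) and Car9, a carbonic anhydrase (4.43, beside 4.49 to 4.50).

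Among EG 2is lines, line 4 was low for Aldh1l1 (7.47, beside 8.21 to 8.35) and Fuca2 (7.55, beside 7.60 to 7.61), in both cases the EG 2is line nearest to the EG 2i lines, and high for the imprinted Peg12 (6.05, beside 5.63 to 5.70). Without EG 2is line 4, 0 genes were called. Line 3 was low for Sox11 (5.22, beside 5.76 to 5.80), Ascl2, a trophoblast factor (5.06, beside 5.27 to 5.32), and the histone gene H1f3 (6.35, beside 6.63 to 6.68), and high for Pdia4 (9.90, beside 9.51 to 9.56). Line 1 was high for Pfkp, a phosphofructokinase (10.5, beside 10.1 to 10.2), Tet3 (6.11, beside 5.83 to 5.86) and Car9 (4.66, beside 4.53 to 4.54). Line 2 was high for Usp17la (6.16, beside 5.15 to 5.25) and low for the Y-linked Kdm5d (4.67, beside 4.85 to 4.88), although it is labelled male and had an Eif2s3y level of 8.61. Kdm5d was at 4.81 to 4.98 in EG 2i lines of either sex. The EG 2is values of Kdm5d and the Car9 values of both derivations lay below 4.88, the background mark. These gaps therefore rest on values not above background.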

How the results depend on the processing

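Of 25 alternative settings, 21 called 0 of the genes tested, and 1319 to 2436 genes had an unadjusted p under 0.05, beside 2116 in the fit as reported. The exceptions were 1 gene with the 8 arrays and a sex term (Fabp3, lower), 7 in that fit without EG 2i line 1 (all lower), 5 with the X-linked level in place of sex over 22 arrays (all lower) and 11 over 8 arrays (1 higher, 10 lower). Settings with the X-linked level, or that leave out EG 2i line 1 beside another change, were chosen after seeing the data, as were all settings for probe sets without a single gene. Leaving out each line in turn gave 0 called genes in all 8 fits. Over the named genes the settings gave 3598 values, of which 3513 had the same sign and were not called, 77 changed sign without a call, 8 were newly called and 0 were called with the sign reversed.

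The 2 calls among probe sets without a single gene became 0 with the 8 arrays, the 12 EG arrays, female arrays, the X-linked level over 8 arrays, and the fits of 8 or of female arrays without EG 2i line 1. They became 1 with a sex term in each culture, with the code set in place of batch, after a further quantile normalization and with trend and robust priors, and ranged from 0 to 4 without single lines. The gap in culture score was -0.30, -0.13 without a fold threshold and -0.38 to -0.20 without single lines.

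With replicate number as a block over the 8 arrays 0 genes were called, 1319 had an unadjusted p under 0.05, and 0 probe sets without a single gene were called. Deviations of same-numbered lines correlated at 0.30, -0.42, 0.32 and -0.56. The negative values belong to lines 2 and 4, whose X-linked levels were unlike (0.50 and -0.16, -0.18 and 0.48 in EG 2i and EG 2is). The correlations thus go with X-linked level and cannot decide whether the numbers pair the lines. Labelled sex, X-linked level and derivation are unequal among 8 lines, and the batch term rests on ES lines alone.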
